A study of Mus musculus with 6 samples.

Results

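The glucocorticoid receptor gene Nr3c1 and 5 of the genes that respond to the receptor, namely Tsc22d3, Fkbp5, Per1, Klf9 and Zbtb16, were examined for accessible chromatin in Beko cells, a mouse leukemia pre-T cell line with constitutive Notch signaling. Members were the ATAC-Seq peaks that overlapped the body of 1 of these 6 genes or the 50 kb to either side of it, which gave 43 of the 32527 peaks of the list. ATAC-Seq marks open DNA by the insertion of sequencing adapters by a transposase. The list was merged over 6 libraries, 3 from cells kept for 24 h in the γ-secretase inhibitor (GSI) DAPT and 3 from cells kept for 24 h in the solvent DMSO. GSI stops the release of the Notch intracellular domain, the partner of the transcription factor RBPJ. The labels give its dose as 10 mg/ml, and the methods give the same figure in μg/ml. No steroid was added in either group, as far as labels and methods state, and the hormone content of the serum in the medium was not analysed here. All libraries come from 1 cell line, and nothing says whether the libraries of a group came from separate cultures. Since the list gives positions and no signal, no value below has a replicate error, and GSI was not compared with DMSO. A peak in 1 treatment alone could have entered the list. The 6 genes were chosen by peak positions and widths in the same list, Nr3c1 for the width of its promoter peak, so that peak counts and widths are a description with no test.

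The glucocorticoid receptor is a nuclear receptor that waits in the cytoplasm in a complex with chaperones. Upon binding of corticosterone or cortisol it enters the nucleus and binds DNA as a dimer, at short inverted repeats called glucocorticoid response elements, where it activates or represses nearby genes. Immature T cells of the thymus are known to be killed by glucocorticoids, and the hormones are used for that reason against lymphoid leukemia. Among the response genes, Fkbp5 encodes a cochaperone that lowers the affinity of the receptor for its hormone, and Tsc22d3 encodes GILZ, a leucine zipper protein that mediates anti-inflammatory actions. Per1 encodes a repressor of the circadian clock. Klf9 and Zbtb16 encode zinc finger transcription factors, the latter known as PLZF and needed for innate-like T cells.

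The palindrome GNACANNNTGTNC, a relaxed form of the response element, was searched in all peaks. It was found 8 times in the 43 peaks of the 6 genes, in 6 peaks of 4 genes. Related steroid receptors recognise the same letters, and a match is not a binding event. The stretches below show at least 1 match of each of the 4 genes, on the plus strand of mm9 and 5′ to 3′, so that the letters of the arms can be compared. None overlaps an annotated exon. Capitals mark the matches. In the Per1 stretch the second run of capitals is TGACGTCA, the cAMP response element, which lies with the palindrome in a span of 133 bp. In the Zbtb16 stretch the capitals are 2 overlapping palindromes. The Klf9 stretch, from the only peak of that gene, holds no palindrome, and its capitals mark 1 arm of the element, AGAACA read on the minus strand.
Per1 intron, chr11:68910560-68910731: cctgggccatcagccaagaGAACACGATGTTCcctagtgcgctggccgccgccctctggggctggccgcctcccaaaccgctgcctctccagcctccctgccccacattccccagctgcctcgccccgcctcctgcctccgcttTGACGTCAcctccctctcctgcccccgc
Zbtb16 intron, chr9:48548320-48548439: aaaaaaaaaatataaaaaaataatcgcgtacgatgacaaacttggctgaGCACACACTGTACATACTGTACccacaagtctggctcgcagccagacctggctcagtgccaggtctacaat
Fkbp5 upstream, chr17:28655072-28655191: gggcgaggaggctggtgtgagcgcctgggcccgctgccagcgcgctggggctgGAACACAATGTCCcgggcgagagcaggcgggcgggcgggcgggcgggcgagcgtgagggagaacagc
Fkbp5 farther upstream, chr17:28660070-28660189: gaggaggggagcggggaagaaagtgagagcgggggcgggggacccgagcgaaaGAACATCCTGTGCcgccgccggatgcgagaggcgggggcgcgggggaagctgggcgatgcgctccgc
Tsc22d3 downstream, chrX:137040452-137040571: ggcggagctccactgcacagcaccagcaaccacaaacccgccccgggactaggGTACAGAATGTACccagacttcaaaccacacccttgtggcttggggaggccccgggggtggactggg
Klf9 intron, chr19:23226250-23226369: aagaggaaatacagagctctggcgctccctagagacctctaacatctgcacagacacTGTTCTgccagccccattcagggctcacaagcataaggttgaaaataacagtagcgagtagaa

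In the Per1 match, GAACACGATGTTC, both arms are exact inverted copies of each other. The same holds for GTACAGAATGTAC at Tsc22d3 and for the second of the Zbtb16 matches, GTACATACTGTAC, so 3 of the 8 matches are exact inverted repeats. The remaining matches differ between their arms, as in GAACACAATGTCC upstream of Fkbp5.

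A peak lay within 1 kb of an own annotated transcript start in 4 of the 6 genes (Nr3c1, Tsc22d3, Fkbp5 and Per1), and in neither Klf9 nor Zbtb16. Of all 22367 protein-coding genes, 47.0% had such a peak. Each of the 6 had at least 1 peak in its window, as had 77.2% of coding genes. The number of peaks was 5 for Nr3c1, 5 for Tsc22d3, 12 for Fkbp5, 18 for Per1, 1 for Klf9 and 2 for Zbtb16, against a median of 3 per coding gene with quartiles at 1 and 6. Of the 43 peaks, 7 lay within 1 kb of an own start, 10 within 1 kb of the start of another gene, and 26 were distal, that is more than 1 kb from every annotated start. The distal share was 60.5%, against 64.6% of all peaks. Widths ran from 265 to 2713 bp with a median of 595 bp, against 551 bp over the whole list.

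**Figure D1:**
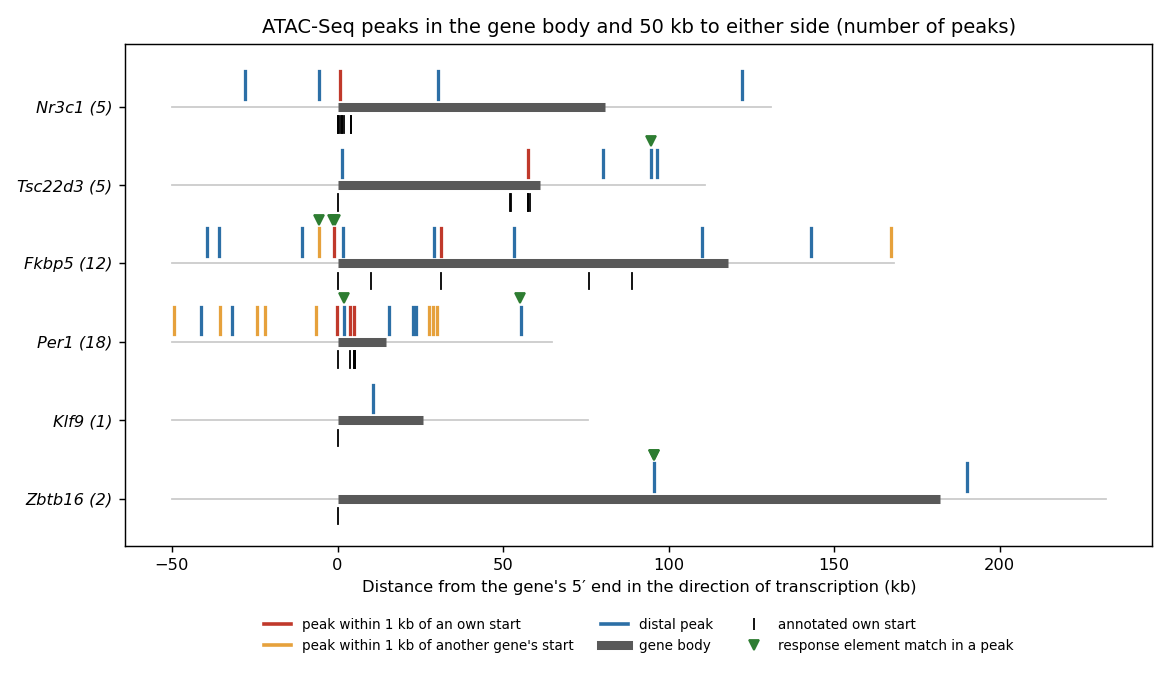
Position of the 43 peaks relative to the 5′ end of each gene (x axis, kb in the direction of transcription), with 1 row per gene and the number of its peaks in parentheses. Vertical bars are peak centres coloured by class, ticks below the gene body are annotated starts, and triangles are palindrome matches inside peaks. Nr3c1, Tsc22d3, Fkbp5 and Per1 have a red bar, and Klf9 and Zbtb16 have none.

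Nr3c1 (ENSMUSG00000024431.7, chromosome 18, 39570199 to 39650955 of mm9, minus strand) carried a single promoter peak of 2713 bp, at 39648736 to 39651448. The gene is transcribed from several alternative first exons, and 6 of its 8 annotated starts lay inside this peak. The other 2 starts, at 39646886 and 39646899, lay 1850 and 1837 bp beyond its edge. By the width of the widest peak at an own start Nr3c1 took rank 3 among the 10502 coding genes that have one, where the median is 926 bp. It stood between Ddit3 and Mbd6, which share a peak of 2754 bp, and E2f3 with 2685 bp. The peak was CpG-rich, with a GC content of 68.2% and an observed to expected CpG ratio of 0.859. The other 4 peaks of the window were distal and had CpG ratios of at most 0.276. One of 325 bp lay in intron 2, 2 of 802 and 1452 bp began 5282 and 27261 bp upstream, and 1 of 417 bp lay downstream, within the neighbouring gene Arhgap26. No palindrome was found in the 5 peaks.

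**Figure D2:**
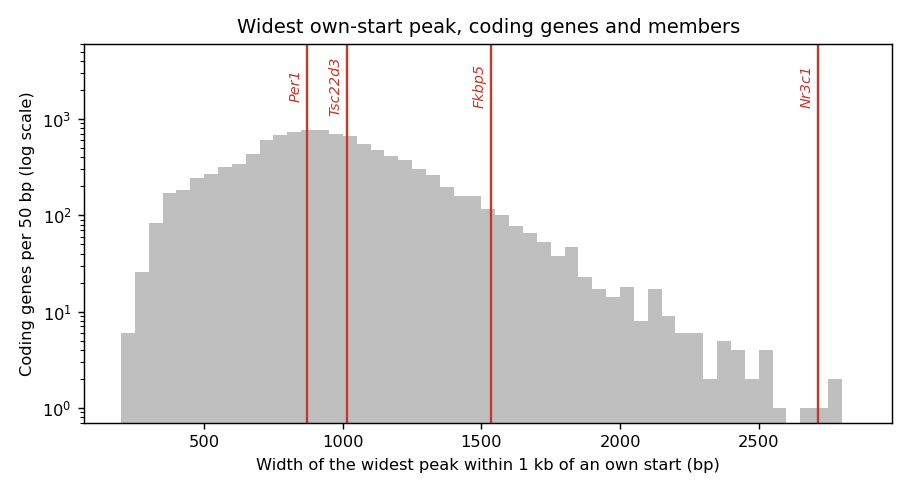
Width of the widest peak within 1 kb of an own start (x axis, bp) for the 10502 coding genes that have such a peak, as the number of genes per bin of 50 bp (y axis, log scale). Red lines mark Per1 (871 bp), Tsc22d3 (1015 bp), Fkbp5 (1533 bp) and Nr3c1 (2713 bp), the last of which lies at the right end of the distribution.

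Fkbp5 (ENSMUSG00000024222.9, chromosome 17, 28536040 to 28654469, minus strand) had 12 peaks, and 424 coding genes had more. Its window is long at 218 kb, and the density of 5.49 peaks per 100 kb was exceeded by 4228 genes. It had 2 peaks at own starts. The wider, of 1533 bp at 28622276 to 28623808, covered the start of transcript Fkbp5-001 and was CpG-rich with a ratio of 0.963. The other, of 1186 bp at 28654893 to 28656078, began 424 bp upstream of the farthest start, that of Fkbp5-004, and held a CpG ratio of 0.464. The palindrome occurred in this second peak at 662 and 1514 bp upstream of that start, and in a peak of 971 bp at the start of the neighbouring gene E230001N04Rik, 5660 bp upstream. The 4 intronic distal peaks measured 457 to 1092 bp. The first of these in the direction of transcription lay in intron 1 of Fkbp5-004, and the others in introns 3, 4 and 11. The remaining peaks were 4 distal ones outside the gene and 1 at the start of Tead3.

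Tsc22d3 (ENSMUSG00000031431.7, chromosome X, 137074067 to 137135198, minus strand) had 5 peaks. Its window held 3.10 peaks per 100 kb, against a median of 0.462 and an upper quartile of 1.84 for the 932 coding genes on X. The peak at own starts, 1015 bp at 137077045 to 137078059, held the starts of 3 transcripts, among them the protein-coding Tsc22d3-001. It was the only peak within 1 kb of a start of the gene. Of the coding genes on X, 32.2% had such a peak. The start of the longest transcript, Tsc22d3-006, lay 1134 bp from the nearest peak, which was just outside the limit of 1 kb. That peak, of 572 bp in intron 1, was CpG-rich with a ratio of 1.05. The starts at 137082877 and 137083068 lay 4818 and 5009 bp from a peak. All 3 other peaks, of 391, 599 and 886 bp, lay 80.2 to 96.5 kb from the 5′ end and downstream of the gene. The palindrome was found in the one of 599 bp, 36696 bp from the nearest start. No peak lay in the 50 kb upstream, and the nearest peak on that side was 356 kb away.

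Per1 (ENSMUSG00000020893.11, chromosome 11, 68908719 to 68923462, plus strand) had 18 peaks in 115 kb, or 15.7 per 100 kb. Only 5 of the 22367 coding genes had a denser window. Of these peaks 8 lay at starts of other genes, among them the mitotic kinase gene Aurkb, the synaptobrevin gene Vamp2, Tmem107, the small nucleolar RNA gene Snord118 and the lipoxygenase gene Aloxe3. With distal peaks only, the density was 6.10 per 100 kb, and 98.2% of coding genes had as few or fewer. One peak of 562 bp, at 68936089 to 68936650, lay within Hes7, a gene of the Hes family of Notch effectors, and was counted at the start of the noncoding 9130213A22Rik. The own starts were covered by 3 separate peaks of 871, 317 and 265 bp. The widest, at 68908182 to 68909052, covered the first start, and the others covered the starts at 68912450 and at 68913654 and 68913660. Thus 4 of the 6 own starts lay inside a peak, and the other 2 lay 305 and 318 bp from one. The widest of the 3 was narrower than the median of 926 bp for coding genes. A distal peak of 553 bp in intron 1, at 68910352 to 68910904, held both the palindrome and the cAMP response element, the latter 1746 bp upstream of the start of Per1-001. The second palindrome of the window lay 55.2 kb from the 5′ end, in a peak of 533 bp.

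Klf9 (ENSMUSG00000033863.1, chromosome 19, 23215716 to 23241401, plus strand) had 1 peak, of 458 bp in intron 1 at 23226063 to 23226520. It began 10347 bp from the only annotated start. The next peaks were 289 kb upstream and 106 kb downstream of the gene. Zbtb16 (ENSMUSG00000066687.4, chromosome 9, 48462416 to 48644050, minus strand) had 2 peaks of similar width. One of 484 bp, at 48548160 to 48548643 in intron 3, lay 95.6 kb from the 5′ end and held both overlapping palindromes. The other, of 457 bp, lay 7.68 kb downstream of the gene. The next peaks were 149 kb upstream and 115 kb downstream. All 3 peaks of these genes were narrower than 500 bp and than the median of 551 bp over all peaks. All 3 are distal, and distal peaks had a median of 465 bp with quartiles at 385 and 617 bp. Whether the 3 peaks are weak cannot be read from the list, which gives no signal.

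The limit of 50 kb fell close to peaks at some genes. At Per1 the farthest upstream peak inside lay 49.1 kb from the gene and the next one outside 53.3 kb. At Nr3c1 the downstream peaks just inside and outside lay 41.1 and 50.8 kb from the gene. At Fkbp5 they lay 47.4 and 69.8 kb downstream and 39.2 and 57.8 kb upstream.

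Start sites were then compared by CpG content, which the choice of peaks did not use. Within 500 bp of the 5′ end, CpG-rich meant an observed to expected ratio of 0.6 or more with 50% or more GC. Of the 9880 coding genes with a CpG-rich start region 76.2% had a peak at an own start, and of the 12487 others 23.8%. In Klf9 this region had a ratio of 1.03 and a GC content of 66.8%, and in Zbtb16 a ratio of 0.749 and 64.7%. Both were thus CpG-rich without a peak. The ratios of Nr3c1, Tsc22d3 and Per1 were 0.631, 0.650 and 0.626, close to the limit. At Tsc22d3 the 5′ end itself had no peak within 1 kb, the nearest being 1134 bp away. The own-start peak of Tsc22d3 lay 57.6 kb from that end and had a CpG ratio of 0.480. Fkbp5 had a ratio of 0.331 at its farthest start and was the only one of the 6 that was not CpG-rich there. The median ratio was 0.737 for coding genes with a peak at an own start and 0.273 for those without. Klf9 lay above the upper quartile of the former, 0.846. The comparison says nothing about transcription of these genes, which was not analysed here.

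**Figure D3:**
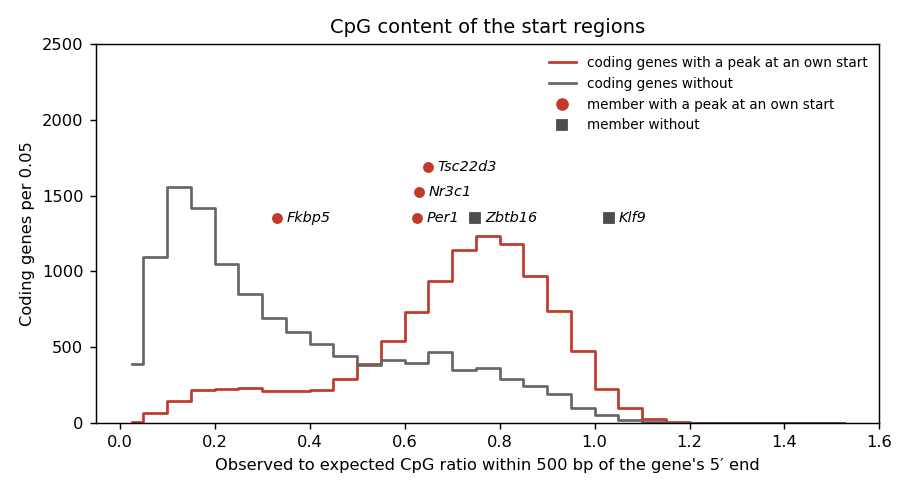
Observed to expected CpG ratio within 500 bp of the 5′ end (x axis) for coding genes with and without a peak within 1 kb of an own start (y axis, genes per bin of 0.05). The markers give the 6 genes at their ratio on the x axis, and their height has no meaning. Klf9 (1.03) and Zbtb16 (0.749), both without such a peak, lie where genes with a peak prevail.

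Over all 6 windows together, 51.9% of the annotated own starts (14 of 27) lay inside a peak, against 37.2% of the 70051 annotated starts of coding genes. Of these 14 starts, 6 lay in the 1 wide peak of Nr3c1, a gene chosen for the width of that peak. Peak density was 3.97 per 100 kb, against 2.63 when all coding gene windows were pooled in the same way, and 2.40 against 1.36 for distal peaks. The former rested on Per1, which has 18 of the 43 peaks. Without Per1 the density of the other 5 genes was 2.58 per 100 kb, against 2.63, and 1.96 for distal peaks, against 1.36. The order of density was Per1, Fkbp5, Tsc22d3, Nr3c1, Klf9 and Zbtb16. Nr3c1 and Tsc22d3 had the same number of peaks and differed only in the length of their windows, 181 and 161 kb. Klf9 with 0.796 and Zbtb16 with 0.710 per 100 kb lay below the coding median of 2.38. For Zbtb16, 26.7% of coding genes had a density as low or lower, and for Fkbp5 81.1%.

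**Figure D4:**
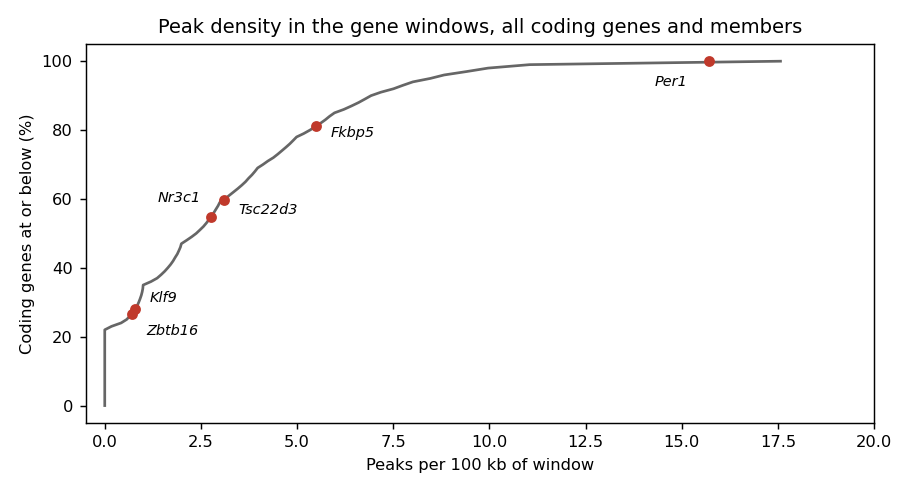
Peaks per 100 kb of window (x axis) against the percentage of the 22367 coding genes at or below that density (y axis). The grey line gives all coding genes and the red points the 6 genes, from Zbtb16 (0.710) and Klf9 (0.796) near the low end to Per1 (15.7) at the high end.

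The share of peaks with short motifs was next set beside that of the whole list. The palindrome GNACANNNTGTNC was present in 6 of the 43 peaks (14.0%), against 1.20% of all peaks. Per kb of peak there were 0.241 matches, against 0.0186 in all peaks. By class, a match was in 4 of the 26 distal peaks (15.4%) against 1.25% of all distal peaks. At starts it was in 2 of 17 peaks (11.8%) against 1.09%. Both of these lay in the window of Fkbp5, 1 of them at the start of E230001N04Rik. A matching peak lay in the window of 4 of the 6 genes (66.7%), against 4.45% of coding genes. The 6 windows were 115 to 282 kb long with 1 to 18 peaks, against medians of 115 kb and 3 peaks for coding genes. How much of the contrast goes with window length and number of peaks was not tested. The windows as a whole held 38 matches, or 0.0351 per kb against 0.0171 per kb in the genome. By gene it was 0.0641 per kb at Fkbp5, 0.0610 at Per1, 0.0318 at Klf9, 0.0284 at Zbtb16, 0.0186 at Tsc22d3 and 0.0111 at Nr3c1. Fkbp5 held 14 of the 38 matches, and Nr3c1 lay below the genome. Of the 38 matches, 21.1% (8 matches) were in peaks, against 0.911% of the matches in the genome (398 of 43684). Such a share also depends on how much sequence the peaks cover, which was not matched between windows and genome. The 43 peaks held 33193 bp, in windows of 1082 kb together. The matches per kb of peak given above do not depend on that coverage. AGAACA, the longer arm of a stricter palindrome, reaches beyond the letters searched above. By contrast to the relaxed form, it was found in 37.2% of the peaks and in 36.3% of all peaks. The strict palindrome of AGAACA and its reverse complement was found in none of the 43 peaks and in 5 peaks of the whole list. No test was made, since the genes were not drawn at random, 5 of the 6 are known response genes, and peaks share neighbourhoods.

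With distal peaks and peaks at starts pooled, motifs of other factors were mostly as frequent as in the list. TGGGAA, the RBPJ motif, was in 41.9% of the peaks against 42.5%, CAGCTG, the E-box of E proteins, in 39.5% against 42.7%, and TGTGGT, a RUNX motif, in 41.9% against 41.4%. CACGTG, the E-box of clock factors, was in 16.3% against 13.8%, and CCGGAA, an ETS motif, in 27.9% against 22.5%. TGACGTCA was in 1 peak (2.33%) against 2.07%. GGGCGG, bound by SP factors, was in 62.8% against 38.7%. All motifs were searched on both strands. TGGGAA occurred in 1 own-start peak of each of the 4 genes that have one. At Per1 it began 112 bp upstream of the nearest start and at Fkbp5 385 bp, while at Nr3c1 it lay 22 bp downstream of one. At Tsc22d3 it began 45 bp upstream of the start of Tsc22d3-003, a transcript that is not protein-coding. The match there lay downstream of the start of the protein-coding Tsc22d3-001. Such a match is common, as 48.4% of all peaks at starts hold one. Within the window of Fkbp5, the peaks at 28600485 to 28601576 and 28664902 to 28665356 held 3 TGGGAA sites each. CACGTG was found in 2 of the 3 own-start peaks of Per1, a gene driven by clock factors at such E-boxes, at 334, 165 and 150 bp upstream of a start.

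**Figure D5:**
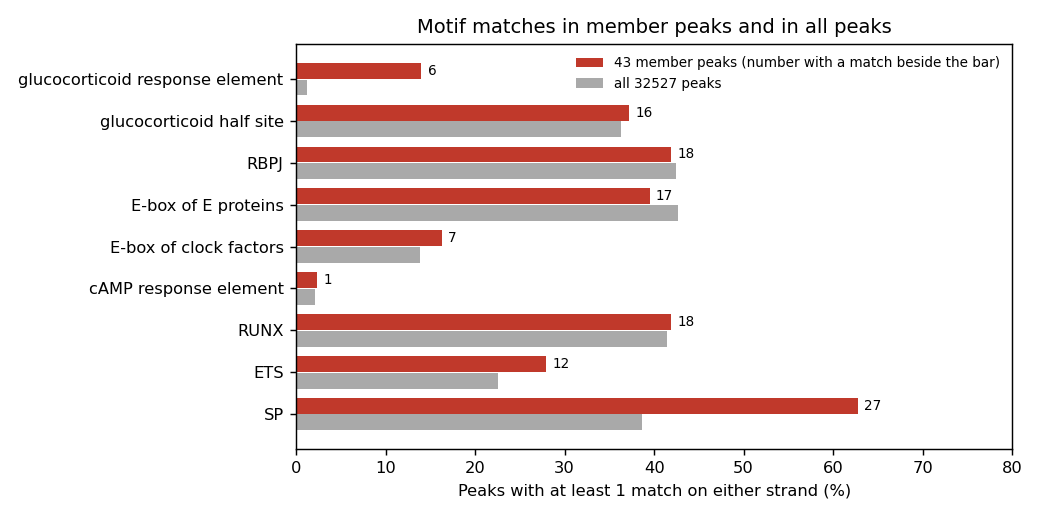
Percentage of peaks with at least 1 match (x axis) for 9 motifs (y axis), in the 43 peaks of the 6 genes (red, number of peaks beside the bar) and in all 32527 peaks (grey). The response element palindrome was found in 14.0% against 1.20%, while the shares of AGAACA, the arm of the strict palindrome, 37.2% and 36.3%, lie side by side.

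Further genes of the pathway were taken from 5 lists, which together named 56 different genes, 55 of them annotated as protein-coding. Fkbp4 stood among both the chaperones and the paralogues. Of these, 41 had a peak at an own start (74.5%, against 47.0% of coding genes). Chaperones and cochaperones, which hold the receptor ready for hormone, had one in 9 of 10 genes, the exception being Stip1, and the widest was at Hsp90ab1 with 2002 bp. Coregulators had one in 10 of 10 genes. Among genes of hormone supply and related steroid receptors the number was 3 of 8. The progesterone receptor gene Pgr had no peak anywhere in its window, whereas the mineralocorticoid receptor gene Nr3c2 had 12, of which 3 were at own starts. Hsd11b1, whose enzyme regenerates active hormone in the cell, had 9 peaks. Paralogues of the 6 genes had a peak at an own start in 9 of 11 genes, with Klf13, a close relative of Klf9, at 3 such peaks and 11 in all. For Per2 and Per3 the numbers of peaks were 9 and 6.

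Other response genes had a peak at an own start in 11 of 17 genes. The widest was at the chemokine receptor gene Cxcr4 with 2106 bp, and the phosphatase gene Dusp1 followed with 1661 bp. Bcl2l11, whose product BIM promotes glucocorticoid-induced death of lymphoid cells, had 7 peaks, 2 of them at own starts. Ddit4, Errfi1, Pdk4, Tat, Mt1 and Cdkn1c had none at an own start. Of these, Ddit4 had 11 distal peaks and Pdk4 no peak at all. A peak with the palindrome was present in the windows of 4 of the 17 genes, namely Ddit4, Bcl2l11, Txnip and Cxcr4, against the share of 4.45% given above. The number was 1 of 10 chaperone genes, 2 of 10 coregulator genes, 0 of 8 genes of hormone supply and related receptors, and 1 of 11 paralogues. Over all 55 genes it was 8, or 14.5%. How much of this goes with the number of peaks per window was not tested. The median was 6 peaks for the other response genes, against 3 for coding genes.

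As a check of the cell type, peaks at own starts were counted for marker genes. They were present in 6 of 7 progenitor T-cell genes (Cd3e, Rag1, Bcl11b, Tcf7, Gata3 and Notch1, but not Il2ra). None was present at 4 B-cell genes, 4 myeloid genes or 4 liver genes.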

How the data were processed

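Chromatin of Beko cells was assayed by ATAC-Seq in 3 GSI and 3 DMSO libraries. As the authors describe it, trimmed reads were mapped to mm9 by HISAT2 2.2.1 with a single alignment kept for each read, and Picard took out duplicates. Peaks were called in every library by MACS2 with no input control, and a peak stayed if at least 3 of 6 libraries had it and no blacklisted region overlapped it. Whether read ends were shifted is not given in the sources used here. The deposited list names positions in bp, and its score column, as deposited, is 0 for every peak and was not used. Without a value per library, depth does not enter any value here, and the planned test of GSI against DMSO was not run.

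Starts were converted to count from 1. Genes and starts were taken from GENCODE vM1 on NCBIM37, the build of mm9, and 0 peaks lay outside its chromosomes. The 22367 protein-coding genes leave out the mitochondrial ones. Windows reached 50 kb beyond the gene, a peak counted with any overlap, and an own start was that of any annotated transcript. Introns are numbered in the longest transcript at the centre of the peak. Distances of palindromes are taken from their centre and those of other motifs from their lowest coordinate. Scripts ran under Python 3.11.15, numpy 2.4.6 and matplotlib 3.10.9. On simulated data counting and motif search gave the known answer in 200 of 200 simulated sets each.

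The members and lists were chosen with earlier results of these data known, and the CpG comparison was chosen after the positions of the peaks were seen. All 6 genes are named with all their peaks, the genes next to Nr3c1 by width, and list genes that lack a promoter peak or carry the widest one, except some that are not reported here. The other list genes and the marker genes named were chosen after their values were seen. Alternatives changed the window, the distance to a start, the minimum width, the joining of peaks and the motif, and each gene was left out of the pooled density in turn, which was added after the data were seen.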

Additional observations from a re-analysis of the deposited data

How the results depend on the processing

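No paired analysis was possible because only merged positions were used, and leaving out a library could not be tried either. The number of genes with a peak at an own start was 4 in all 5 alternatives, also with the start inside the peak or within 2 kb of it. Of all coding genes, 43.8 to 49.0% had one in these alternatives. Of the 43 peaks, 15 overlapped a gene body itself, 23 lay within 10 kb of a gene, and 28 were at least 500 bp wide, where Klf9 and Zbtb16 had 0 left. Within 100 kb there were 61 peaks, still 1 at Klf9 and 2 at Zbtb16. Joining peaks within 1 kb left 39, with 14 at Per1. Density was 3.11 to 3.82 per 100 kb with other windows, against 2.24 to 2.62 for all coding genes. With distal peaks only it was 2.40 against 1.36. With each gene left out in turn, chosen after seeing the data, it was 2.58 without Per1 and 3.59 to 5.12 without another gene. The number of peaks with a response element match depended most on the letters searched, with 0 for the strict palindrome and 16 for the single arm AGAACA. In the central 200 bp of the peaks it was 3 (6.98% against 0.406% of all peaks). Within 10 kb of the genes it was 4 of 23 peaks (17.4% against 1.20% of all peaks). An own start that the annotation lacks was not counted, and a merged list shows neither the strength of a peak nor its presence in single libraries.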
